A study of Arabidopsis thaliana with 16 samples.

Results

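Arabidopsis stores seed protein as globulins, which are encoded by the 4 cruciferin genes *CRA1* (AT5G44120), *CRB* (AT1G03880), *CRC* (AT4G28520) and *CRD* (AT1G03890) and by the vicilin-type genes *PAP85* (AT3G22640), AT2G28490, AT2G18540 and AT4G36700. These 8 genes were taken by locus identifier from 37336 counted loci, and all 8 were among the 12697 genes that passed the filter on low counts. RefSeq annotates their products as cruciferins or as proteins of the cupin family. The question was how the transcripts of each globulin differ between WT and *dog1-3* seeds, and between seeds imbibed with and without salt.

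Cruciferins are legumin-type globulins. They are made as precursors in the endoplasmic reticulum of the maturing embryo, sorted to protein storage vacuoles and cleaved there by vacuolar processing enzymes into an acidic and a basic chain. Vicilin-type globulins share the cupin fold but are not cleaved at that legumin site. Transcripts of both kinds accumulate during seed maturation, remain in the dry seed and decline as germination proceeds, when proteases mobilize the stored protein.

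Seeds of Col-0 (WT) and of *dog1-3*, a single T-DNA insertion line (SALK_000867) in the dormancy gene *DOG1*, were plated 1 day after harvest on MS agar without NaCl (mock) or with 100 mM NaCl. All 4 groups spent 72 h at 4°C before whole seeds were frozen, and each group had 4 libraries, described as biological replicas. Transcripts were counted by 3'RNA-seq, which reads the 3′ ends of polyadenylated RNA. Mock and NaCl reactions were pooled separately before amplification, so that pool and treatment cannot be told apart. Whole seeds hold embryo, endosperm and seed coat, and fewer cells of a type and less RNA per cell cannot be told apart in these values.

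Total counts per library ranged from 1416354 to 3635844. *DOG1* was lower in *dog1-3*, with 15.6 ± 2.30 CPM (counts relative to the TMM-scaled library size; SD, n = 4) against 80.5 ± 16.4 in WT mock, and between 22 and 51 counts remained in every *dog1-3* library. Replicate 4 of WT stood apart for the cruciferins, since all 4 genes were lowest there in WT mock and again in WT NaCl. The 4 genes together took 2.15% of its counts in WT mock, against 2.91 to 3.81% in the other replicates, and 2.78% in WT NaCl, against 3.24 to 4.04%. The 2S albumin gene *SESA3* was also lowest in both libraries, at 4935 and 5976 CPM. Calls that change without these libraries are given with and without them.

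The 8 genes lie at separate places in the genome, apart from *CRB* (chr1:985751-988146) and *CRD* (chr1:989198-991020), neighbours on the plus strand of chromosome 1 that are 1052 bases apart. None of the 8 overlaps another annotated gene. *CRA1* lies at chr5:17756238-17758336, *CRC* at chr4:14087556-14089796 and *PAP85* at chr3:8011724-8013941. AT2G28490 lies at chr2:12178597-12181012, AT2G18540 at chr2:8042096-8045033 and AT4G36700 at chr4:17298200-17300367. *CRA1* and *CRB* had the most similar coding sequences, with 77.0% of aligned bases identical, followed by AT2G18540 and AT4G36700 with 72.5%. All 251 stretches of 50 nucleotides in the last 300 nucleotides of each mRNA occurred at 1 place in the genome, so that reads from the 3′ ends can be told apart between members.

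Transcripts of *CRA1* and *CRC* were among the 5 most abundant by mean CPM in each of the 4 groups. By the sum over libraries *CRA1* ranked 3 and *CRC* ranked 4 among all loci, *PAP85* 10, *CRB* 18 and AT2G28490 33. AT2G18540 ranked 322, AT4G36700 1664 and *CRD* 3501. The 4 cruciferins took 3.14% ± 0.776 of all counts in WT mock, 3.33% ± 0.521 in WT NaCl, 4.30% ± 0.226 in *dog1-3* mock and 4.84% ± 0.548 in *dog1-3* NaCl (SD, n = 4). The 4 vicilin-type genes took 0.507% ± 0.0610, 0.789% ± 0.0830, 1.06% ± 0.0308 and 1.42% ± 0.0716 in the same order. The summed vicilin-type share was thus higher in each of these groups than in the one before it. Its library ranges of 0.438 to 0.586%, 0.715 to 0.880%, 1.02 to 1.09% and at least 1.33% did not overlap. Most of these counts came from *PAP85*, with mean proportions of 66.0, 72.6, 65.2 and 73.0% in the same order. Without *PAP85* the mean share was 0.173, 0.217, 0.370 and 0.383%, nearly the same in both *dog1-3* groups.

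By mean CPM the order in WT mock was *CRA1*, *CRC*, *CRB*, *PAP85*, AT2G28490, AT2G18540, AT4G36700 and *CRD*. The values were not divided by mRNA length, since 3'RNA-seq reads the 3′ ends. The mean ranged from 13259 CPM for *CRA1* and 11123 for *CRC* to 46.2 for AT4G36700 and 24.1 for *CRD*. In the other 3 groups *PAP85* stood above *CRB*. The ranges of *PAP85* and *CRB* overlapped in both WT groups and were separate in both *dog1-3* groups. *CRA1* and *CRC* overlapped except in *dog1-3* mock, although *CRA1* had the higher CPM in 15 of 16 libraries. *CRB* and AT2G28490 were separate except in *dog1-3* NaCl, and no other neighbours in the order overlapped in any group.

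**Figure D1:**
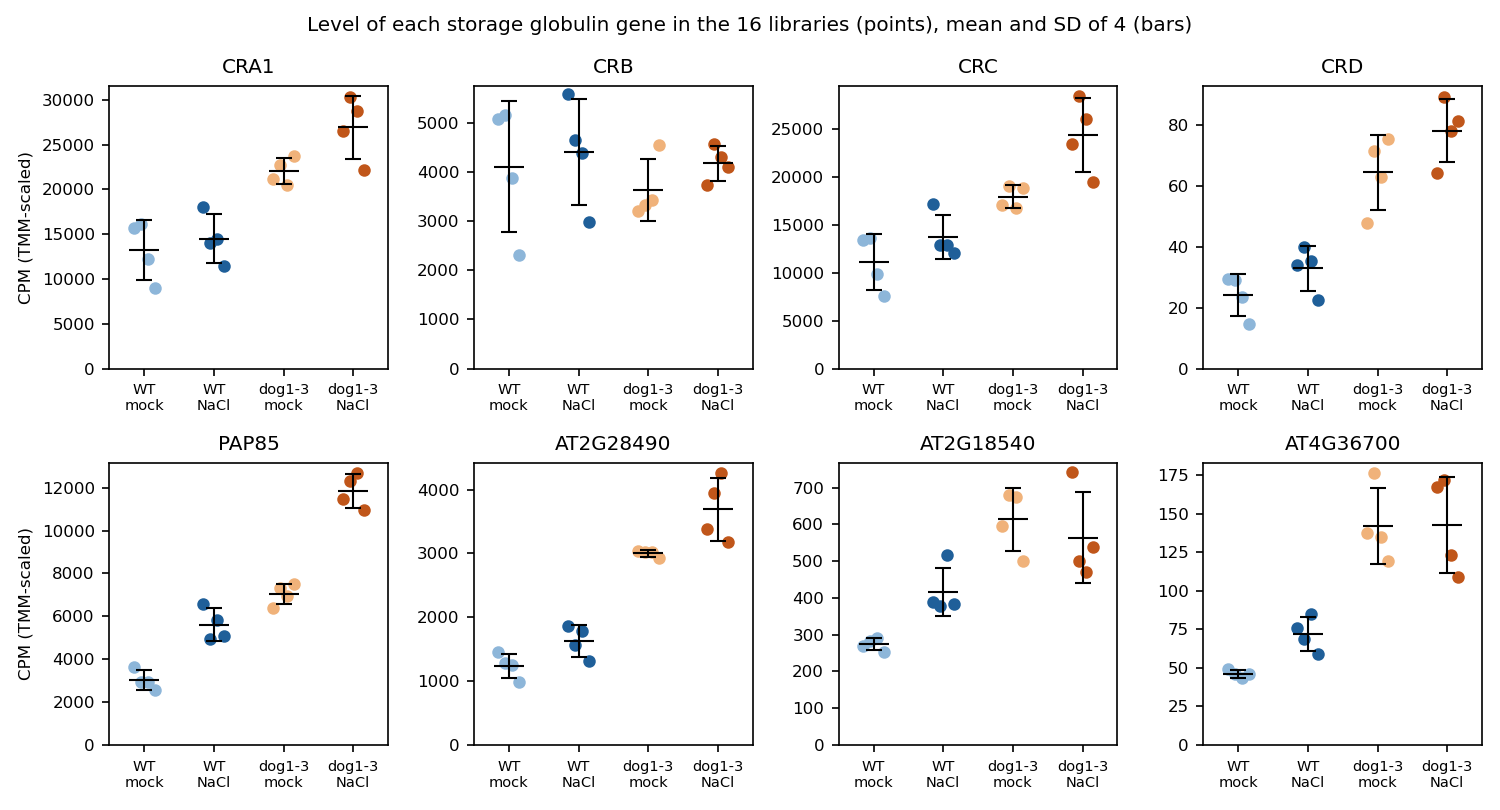
Level of the 8 genes in CPM (vertical axes, each starting at 0) in the 4 groups, with one point per library and bars for the mean and SD of 4 libraries. In 7 of the 8 genes all *dog1-3* mock libraries lie above all WT mock libraries, and *CRB* is the exception, with WT mock libraries from 2317 to 5166 CPM around all 8 *dog1-3* libraries.

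The genotypes were compared first without salt. In *dog1-3* mock, 7 of the 8 storage globulin genes were upregulated against WT mock and none was downregulated, where 9.94% of all tested genes were called higher and 8.44% lower. The increases ranged from a log2 fold change (log2FC) of 0.69 for *CRC* to 1.64 for AT4G36700, and *CRB* was the gene not called. A call required an adjusted p under 0.05 in edgeR's quasi-likelihood test and a change of more than 1.5-fold. The median log2FC of the 8 genes was 1.19, while the central 90% of all tested genes lay between -0.79 and 0.91.

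*CRA1*, which encodes the most abundant cruciferin transcript, was measured at 15716, 16117, 12225 and 8977 CPM in the 4 WT mock libraries and at 21167, 22747, 20511 and 23774 CPM in *dog1-3* mock. Every *dog1-3* library was above every WT library. The log2FC was 0.73 (standard error 0.13, adjusted p = 2.56e-05). *CRC* was measured at 13397, 13614, 9894 and 7588 CPM in WT mock and at 17147, 19135, 16733 and 18866 CPM in *dog1-3* mock, again without overlap. Its log2FC of 0.69 (standard error 0.13, adjusted p = 6.4e-05) fell to 0.56 without WT mock replicate 4 (adjusted p = 0.000386), which is below the fold-change limit and lowered the number of members called to 6. For *CRA1* the log2FC without that library was 0.60, still above the limit.

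*CRD*, the cruciferin gene next to *CRB*, had the fewest counts of the 8 genes, between 45 and 192 per library. It was measured at 29.4, 29.0, 23.4 and 14.5 CPM in WT mock and at 47.9, 71.6, 63.0 and 75.6 CPM in *dog1-3* mock. The groups were separate, with a log2FC of 1.46 (standard error 0.16, adjusted p = 7.55e-10).

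*CRB* was the exception. It was measured at 5074, 5166, 3870 and 2317 CPM in WT mock and at 3203, 3321, 3420 and 4560 CPM in *dog1-3* mock. The *dog1-3* libraries all fell inside the WT range. The log2FC was -0.18 (standard error 0.16, adjusted p = 0.403, 95% interval -0.48 to 0.13), and the interval lay below those of *CRA1* (0.47 to 0.99) and *CRC* (0.43 to 0.95). Without WT mock replicate 4, the lowest *CRB* library, the log2FC was -0.37 with an adjusted p of 0.0262, a decrease short of the fold-change limit.

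The vicilin-type genes were all called higher in *dog1-3* mock. *PAP85* was measured at 3645, 2954, 2956 and 2563 CPM in WT mock and at 6391, 7303, 6966 and 7495 CPM in *dog1-3* mock. This gave a log2FC of 1.22 (standard error 0.10, adjusted p = 1.27e-12). AT2G28490 was measured at 1449, 1280, 1247 and 987 CPM in WT and at 3034, 3023, 3017 and 2926 CPM in *dog1-3*, a log2FC of 1.27 (standard error 0.11, adjusted p = 9.87e-13). Both genes were more than 2-fold higher and neither had overlapping libraries. AT2G18540 was measured at 270, 283, 292 and 253 CPM in WT and at 596, 681, 676 and 501 CPM in *dog1-3*, a log2FC of 1.16 (standard error 0.11, adjusted p = 3.55e-11). AT4G36700 was measured at 49.5, 45.8, 43.6 and 45.7 CPM in WT and at 137, 176, 135 and 119 CPM in *dog1-3*. This was the largest change among the 8 genes, a log2FC of 1.64 (standard error 0.12, adjusted p = 4.8e-14).

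In NaCl, 6 of the 8 genes were upregulated in *dog1-3* against WT, where 8.16% of tested genes were called higher, and none of the 8 was called lower, where 7.54% were. The 2 genes not called were *CRB* and AT2G18540. *CRA1* was measured at 18078, 13975, 14495 and 11497 CPM in WT NaCl and at 26529, 30321, 28688 and 22169 CPM in *dog1-3* NaCl, and *CRC* at 17205, 12928, 12897 and 12046 CPM against 23495, 28495, 26052 and 19472 CPM. The *dog1-3* libraries of both genes were all above the WT libraries, by 0.89 (adjusted p = 1.27e-06) and 0.82 (adjusted p = 5.75e-06) on the log2 scale, each with a standard error of 0.13. *CRD* was measured at 34.0, 40.0, 35.3 and 22.5 CPM in WT NaCl and at 64.3, 89.2, 78.0 and 81.6 CPM in *dog1-3* NaCl, a log2FC of 1.23 (standard error 0.16, adjusted p = 1.5e-07).

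*CRB* was measured at 5587, 4657, 4387 and 2980 CPM in WT NaCl and at 3727, 4565, 4304 and 4110 CPM in *dog1-3* NaCl. The *dog1-3* values again all lay inside the WT range, with a log2FC of -0.08 (standard error 0.16, adjusted p = 0.763, 95% interval -0.38 to 0.23). *PAP85*, AT2G28490 and AT4G36700 differed by 1.08 (adjusted p = 4.8e-11), 1.17 (adjusted p = 1.46e-11) and 1.00 (adjusted p = 4.46e-08) on the log2 scale, with standard errors of 0.10, 0.11 and 0.13, and none of the 3 had overlapping libraries. AT2G18540 had a log2FC of 0.44 with a standard error of 0.11 (adjusted p = 0.00208), which passed the adjusted p but was short of the fold-change limit, and its libraries overlapped. Its log2FC was 0.27 without *dog1-3* NaCl replicate 1 (adjusted p = 0.0496) and 0.22 with library size alone (adjusted p = 0.129). By the adjusted p alone 7 of the 8 genes were higher in *dog1-3* in each treatment, where 18.5% of tested genes were in mock and 15% in NaCl. Exact permutation tests, two-sided over 4 libraries against 4, gave p = 0.0286 for each separate pair of groups, the smallest such a design allows, and 0.0481 after adjustment over 32 tests of the 8 genes in 4 comparisons. Libraries were separate for 7 of the 8 genes in mock and 6 in NaCl, where 16.1% and 14% of all tested genes had all *dog1-3* libraries above all WT libraries.

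**Figure D2:**
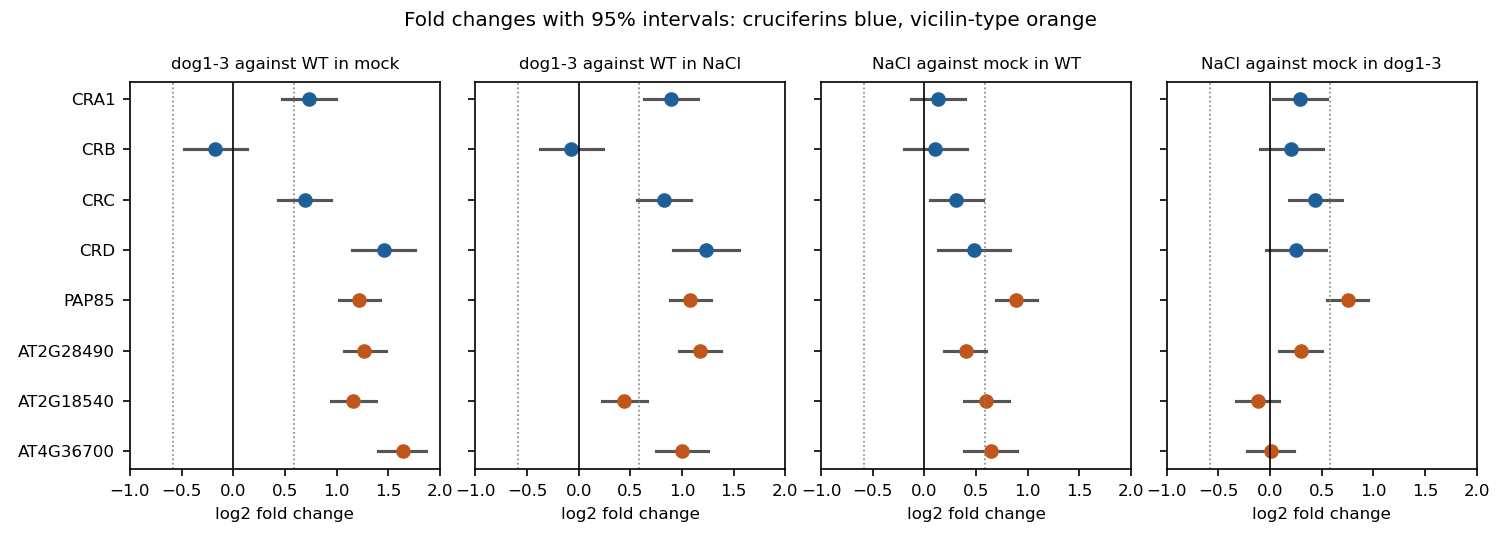
Log2 fold change of the 8 genes (points) with 95% intervals (lines) in the 4 comparisons between groups, with cruciferins in blue, vicilin-type genes in orange and dotted lines at the fold-change limit on either side of 0. In the genotype comparisons every gene but *CRB* lies to the right of 0, and in the comparisons with salt *PAP85* has the largest increases, 0.89 in WT and 0.75 in *dog1-3*.

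Other maturation-stage transcripts moved with the globulin genes. All 5 listed maturation-stage seed markers (*EM1*, *EM6*, *OLEO1*, *OLEO2* and *PER1*) were called higher in *dog1-3* in both treatments, where 9.94% of tested genes were in mock and 8.16% in NaCl. Their summed level ranged from 11113 to 15941 CPM in WT mock and from 26996 to 32598 CPM in *dog1-3* mock. In NaCl the ranges were 16183 to 23316 CPM and 40113 to 48018 CPM. Of 4 endosperm markers, 3 were tested, and *EPR1* was called higher in *dog1-3* mock (log2FC 0.78) and not called in the other comparisons. *MAN5* and *MAN7* were not called in any comparison and did not follow *EPR1*. For *dog1-3* against WT, *MAN5* had log2FC of 0.10 in mock and 0.07 in NaCl, and *MAN7* -0.14 and -0.20. With salt, *MAN7* had log2FC of -0.51 in WT and -0.57 in *dog1-3*. The summed endosperm markers ranged from 15093 to 21289.5 CPM in WT mock and from 25877 to 34248 CPM in *dog1-3* mock, and in NaCl from 16677 to 24322.5 CPM in WT and from 22869.7 to 29728 CPM in *dog1-3*. Nearly all of these counts came from *EPR1*, and *MAN6* was near 0. Of 6 photosynthetic seedling or leaf markers *RBCS1A* alone passed the filter on low counts, and the summed level of the 6, nearly all from *RBCS1A*, ranged from 364 to 446 CPM in WT mock, 553 to 634 in WT NaCl, 476 to 558 in *dog1-3* mock and 816 to 1001 in *dog1-3* NaCl. The part of these transcripts in the results for the globulin genes was not tested.

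Scaling also bears on the size of the increases. With library size alone in place of TMM, the median log2FC of all genes was -0.18 in the mock comparison of genotypes and -0.25 in NaCl. *CRA1* and *CRC* then had log2FC of 0.57 and 0.53 in mock, short of the fold-change limit, and the other 5 genes called in mock kept their calls. The upregulated share of all calls moved from 54.1 to 29.9% in mock and from 52 to 19.9% in NaCl under this scaling.

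Proportions within a library do not depend on scaling between libraries. *CRB* made up 14.8, 14.8, 14.9 and 12.3% of the cruciferin counts in the WT mock libraries and 13.7, 14.7, 13.8 and 11.2% in WT NaCl. In *dog1-3* it made up 7.71, 7.33, 8.40 and 9.65% in mock and 6.93, 7.19, 7.28 and 8.97% in NaCl. All 8 WT libraries, between 11.2 and 14.9%, were above all 8 *dog1-3* libraries, between 6.93 and 9.65%. The ratio of *CRA1* to *CRB* counts was 3.31 ± 0.375 in WT mock and 6.17 ± 0.730 in *dog1-3* mock, and 3.35 ± 0.363 and 6.45 ± 0.741 in NaCl (SD, n = 4). Replicate 4 had the highest *CRB* proportion in both *dog1-3* groups and the lowest in both WT groups.

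The ratio of *CRA1* to *CRC* followed the treatment instead. It lay between 1.17 and 1.24 in WT mock and between 1.19 and 1.26 in *dog1-3* mock, and between 0.954 and 1.12 in WT NaCl and between 1.06 and 1.14 in *dog1-3* NaCl. In both genotypes the mock and NaCl libraries were separate. *PAP85* counts relative to *CRA1* counts were higher in all NaCl than in all mock libraries of both genotypes. The ratio lay between 0.183 and 0.286 in WT mock and between 0.355 and 0.442 in WT NaCl, and between 0.302 and 0.340 in *dog1-3* mock and 0.405 and 0.494 in *dog1-3* NaCl. These proportions are given as descriptions, without a test.

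**Figure D3:**
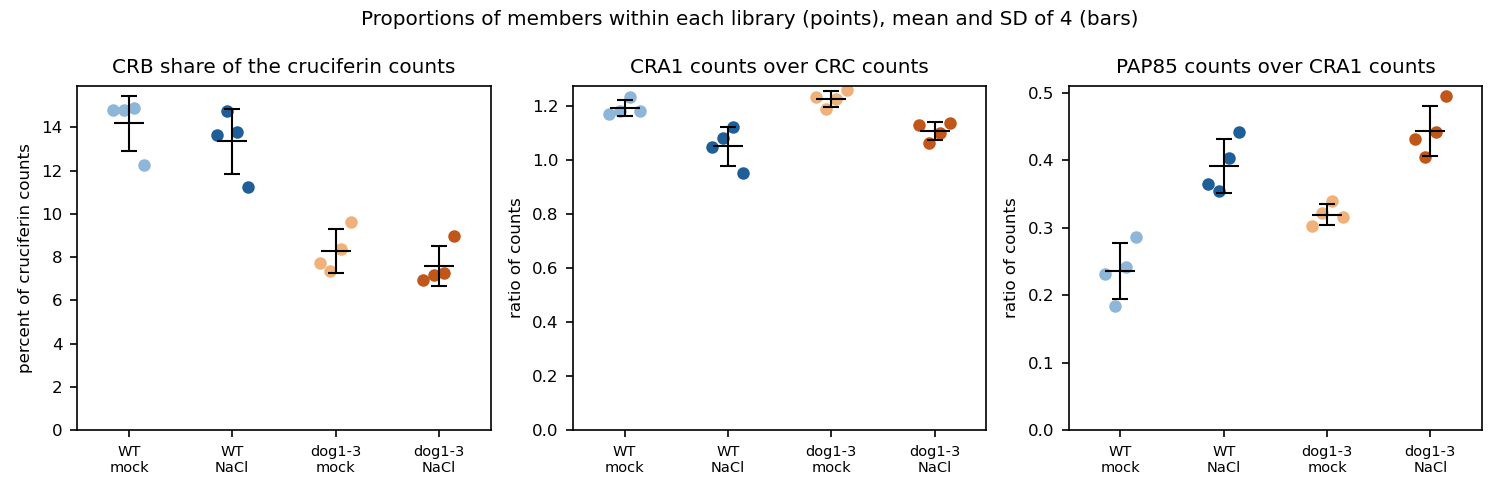
Proportions within each library (points) with the mean and SD of 4 libraries (bars), as the percent of cruciferin counts from *CRB*, the ratio of *CRA1* to *CRC* counts and the ratio of *PAP85* to *CRA1* counts, all on vertical axes starting at 0. The *CRB* percent separates the 8 WT libraries (11.2 to 14.9) from the 8 *dog1-3* libraries (6.93 to 9.65), while the *CRA1* to *CRC* ratio separates mock from NaCl within each genotype.

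Salt was compared with mock in each genotype. In WT, NaCl upregulated 3 of the 8 genes, *PAP85*, AT2G18540 and AT4G36700, where 9.46% of tested genes were called higher, and none of the 8 was called lower, where 7.07% were. All 3 are vicilin-type genes, and no cruciferin passed both limits. By the adjusted p alone, 5 of the 8 were higher, where 18.9% of tested genes were. *PAP85* rose from 3645, 2954, 2956 and 2563 CPM to 6590, 4956, 5845 and 5078 CPM, a log2FC of 0.89 (standard error 0.10, adjusted p = 6.32e-09). AT2G18540 rose to 389, 377, 515 and 384 CPM, a log2FC of 0.60 (standard error 0.11, adjusted p = 4.49e-05), and AT4G36700 to 75.8, 68.8, 84.8 and 59.0 CPM, a log2FC of 0.64 (standard error 0.13, adjusted p = 0.000188). The NaCl libraries of these 3 genes were all above the mock libraries, as in 16.4% of tested genes. The maturation-stage markers *EM1*, *EM6* and *OLEO2* were also called higher with salt in WT, *EM6* in *dog1-3* and *RBCS1A* in both, and their part in these results was not tested.

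The calls of AT2G18540 and AT4G36700 in WT were near the fold-change limit. Without WT NaCl replicate 3, the highest library of both genes, their log2FC were 0.48 and 0.56 and both fell short, which left *PAP85* as the 1 member called. Without WT mock replicate 4 AT2G18540 had a log2FC of 0.57 and also fell short. With library size alone they were 0.48 and 0.52, again short of the limit, when the median of all genes was -0.12. AT2G18540 also fell short with upper-quartile factors (0.58) and without the filter on low counts (0.57).

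The remaining genes changed less in WT. AT2G28490 was measured at 1866, 1570, 1793 and 1313 CPM in WT NaCl and increased by 0.40 on the log2 scale (standard error 0.10, adjusted p = 0.00267), and *CRD* increased by 0.48 (standard error 0.18, adjusted p = 0.0316), both short of the fold-change limit. *CRD* passed that limit without WT mock replicate 2 (log2FC 0.61) or without WT NaCl replicate 4 (log2FC 0.63). It lost the adjusted p without WT mock replicate 4 (log2FC 0.29, adjusted p = 0.172), WT mock replicate 3 (adjusted p = 0.0525) or WT NaCl replicate 1, 2 or 3 (adjusted p = 0.0704, 0.162 and 0.0752), with library size alone (adjusted p = 0.088) and in DESeq2 (adjusted p = 0.0832), so that its place among the 5 genes higher by the adjusted p alone rests on these libraries and settings. *CRC*, *CRA1* and *CRB* had log2FC of 0.31 (adjusted p = 0.0677), 0.13 (adjusted p = 0.473) and 0.10 (adjusted p = 0.652), with standard errors of 0.13, 0.13 and 0.16. For *CRA1* and *CRB* the sign turned without WT mock replicate 4, to -0.01 and -0.09. *CRC* had a log2FC between 0.17 (without WT mock replicate 4, adjusted p = 0.307) and 0.42 (without WT mock replicate 2, adjusted p = 0.0139). It had 0.18 without WT NaCl replicate 1 (adjusted p = 0.324). It passed the adjusted p without WT mock replicate 1 (0.0206) or WT NaCl replicate 4 (0.0383), with the replicate number as a block (0.0225) and without the filter on low counts (0.0136).

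In *dog1-3*, NaCl upregulated 1 of the 8 genes, *PAP85*, where 7.53% of tested genes were called higher, and none was called lower, where 7.16% were. By the adjusted p alone 3 of the 8 were higher, where 15.3% of tested genes were. *PAP85* rose from 6391, 7303, 6966 and 7495 CPM to 11461, 12293, 12668 and 10962 CPM, a log2FC of 0.75 (standard error 0.10, adjusted p = 3.25e-07) with separate libraries. With library size alone the log2FC was 0.58, short of the limit, when the median of all genes was -0.19. *CRC* and AT2G28490 also had all NaCl libraries above all mock libraries, as did 14.1% of tested genes, and increased by 0.44 (standard error 0.13, adjusted p = 0.0109) and by 0.30 (standard error 0.10, adjusted p = 0.0271) on the log2 scale, both short of the fold-change limit. AT2G28490 reached 3377, 3941, 4260 and 3178 CPM in *dog1-3* NaCl. Neither increase held in every alternative. *CRC* missed the adjusted p without *dog1-3* NaCl replicate 2 (0.0603), with library size alone (log2FC 0.26, adjusted p = 0.0929) and in DESeq2 (0.0648). AT2G28490 missed it without *dog1-3* mock replicate 3 or 4 (0.0512 and 0.0584) or *dog1-3* NaCl replicate 2 or 3 (0.0825 and 0.141), and with library size alone (log2FC 0.12, adjusted p = 0.348), under which *PAP85* was the 1 member still higher by the adjusted p. *CRA1*, *CRD* and *CRB* had log2FC of 0.29, 0.25 and 0.20 with adjusted p of 0.1, 0.205 and 0.353. *CRA1* passed the adjusted p without *dog1-3* NaCl replicate 4 (0.0446) or WT mock replicate 4 (0.0467), with only the groups compared (0.0348) and without the filter on low counts (0.0194).

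AT2G18540 and AT4G36700, which were called higher with salt in WT, were not called in *dog1-3*. AT2G18540 was measured at 596, 681, 676 and 501 CPM in *dog1-3* mock and at 744, 501, 470 and 539 CPM in *dog1-3* NaCl, a log2FC of -0.12 (adjusted p = 0.451, 95% interval -0.33 to 0.09). It was -0.29 without *dog1-3* NaCl replicate 1 (adjusted p = 0.038), the highest library of its group, and -0.29 with library size alone (adjusted p = 0.0406). AT4G36700 was measured at 137, 176, 135 and 119 CPM and at 167, 172, 123 and 109 CPM, a log2FC of 0.01 (adjusted p = 0.976, 95% interval -0.22 to 0.23). In both genes the mock and NaCl libraries of *dog1-3* overlapped. The difference from the WT response did not pass the adjusted p of the salt-by-genotype interaction in edgeR's quasi-likelihood test (0.136 and 0.403).

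The difference between the salt responses was tested by the salt-by-genotype interaction. None of the 8 genes passed an adjusted p of 0.05, where 0.00788% of tested genes (1 gene) did, in edgeR's quasi-likelihood test. At an unadjusted p under 0.05 there were 2 of the 8, AT2G18540 and AT4G36700, where 6.51% of tested genes (826) passed. The interaction of AT2G18540 was -0.72 on the log2 scale (standard error 0.16, unadjusted p = 4.29e-05, adjusted p = 0.136) and that of AT4G36700 -0.64 (standard error 0.18, unadjusted p = 0.000855, adjusted p = 0.403). Over the alternatives the adjusted p ranged from 1.04e-05 to 0.441 for AT2G18540 and from 0.0173 to 1 for AT4G36700. AT2G18540 passed without *dog1-3* mock replicate 4 (-0.80, adjusted p = 0.0278) or without *dog1-3* NaCl replicate 1 (-0.89, adjusted p = 0.00326), and both genes passed when the filter on low counts was dropped. The other 6 genes had interactions between -0.23 and 0.16 and unadjusted p of at least 0.326.

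The machinery that makes and handles storage globulins was counted from lists of related genes. Of 4 vacuolar processing enzyme genes, the proteases that cleave cruciferin precursors, 2 passed the filter on low counts. *βVPE*, the seed-type enzyme, had means of 384 CPM in WT mock, 562 in WT NaCl, 571 in *dog1-3* mock and 902 in *dog1-3* NaCl. It was called higher with salt in *dog1-3* (log2FC 0.66) and in *dog1-3* against WT in NaCl (log2FC 0.68), while its log2FC of 0.55 with salt in WT and 0.57 in *dog1-3* mock were short of the fold-change limit. *γVPE*, a vegetative-type enzyme, was called higher in *dog1-3* in mock (log2FC 0.69) and in NaCl (log2FC 0.74). Of 10 folding and vacuolar sorting genes, all tested, only the sorting receptor gene *VSR3* was called. It was higher with salt in WT (log2FC 0.77) and in *dog1-3* (log2FC 0.74), where 9.46 and 7.53% of all tested genes were called higher. None of the 10 was called between genotypes, where 18.4% of all tested genes were called in either direction in mock and 15.7% in NaCl.

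Regulators of storage protein genes had at most 2 calls in any comparison. Of 12 listed genes 8 were tested, and *FUS3*, *LEC1*, *LEC2* and *L1L*, which act in the maturing embryo, did not pass the filter on low counts. *ABI5* and *bZIP67*, which encode bZIP factors, were called higher in *dog1-3* mock (log2FC 0.78 and 0.81, the latter with 6 to 26 counts per *dog1-3* mock library), *bZIP53* in *dog1-3* NaCl (log2FC 0.71), and the B3 repressor gene *VAL2* with salt in WT (log2FC 0.70). In these comparisons 9.94, 8.16 and 9.46% of all tested genes were called higher. *ABI5* in NaCl (log2FC 0.58, adjusted p = 1.36e-07) and *bZIP53* in mock (log2FC 0.49, adjusted p = 0.00216) also differed between genotypes. Both were short of the fold-change limit, and *bZIP67* in NaCl did not pass the adjusted p (0.218). *ABI3*, a B3 activator of storage protein genes, was not called. Its log2FC was 0.53 with salt in WT (adjusted p = 5.32e-07) and 0.20 in *dog1-3* (adjusted p = 0.0459), and 0.35 in mock and 0.01 in NaCl between genotypes. No regulator was called lower in any of the 4 comparisons, where 7.07 to 8.44% of all tested genes were.

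Proteases split in direction. Of 7 listed genes 5 were tested, and the cysteine protease gene *CP1* was called lower in all 4 comparisons, with log2FC of -1.02 and -1.09 with salt in WT and *dog1-3* and of -1.75 and -1.83 for *dog1-3* against WT in mock and NaCl. *CP1* had only 10 to 49 counts per *dog1-3* mock library and 4 to 15 per *dog1-3* NaCl library. Its decrease with salt in *dog1-3* was near the threshold (standard error 0.42, adjusted p = 0.044). The aspartic protease gene *PASPA2* was called higher in *dog1-3* in mock (log2FC 1.40) and in NaCl (log2FC 1.32). *APA1*, a further aspartic protease gene, was called higher with salt in *dog1-3* (log2FC 0.74) and in *dog1-3* against WT in NaCl (log2FC 0.64). *CATHB3*, a cathepsin B-like gene, was called lower with salt in WT (log2FC -0.63).

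The 5 genes of 2S albumins, the other main storage proteins of the seed, were all called higher in *dog1-3* mock (median log2FC 0.72) and 4 of 5 in NaCl. Of all tested genes, 9.94% were called higher in mock and 8.16% in NaCl. *SESA2* had the largest increase in mock, a log2FC of 1.81. With salt *SESA5* was called higher in WT (log2FC 0.96), where 9.46% of tested genes were. *SESA4* and *SESA5* were called higher with salt in *dog1-3* (log2FC 0.75 and 0.80), where 7.53% of tested genes were.

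The genes outside the 8 whose log2 CPM over the 16 libraries was most like the summed cruciferins were *SESA3* (Pearson r = 0.98), *ATPXG2* (r = 0.96), *MIPS1*, AT3G14880 and AT1G43890 (r = 0.95 each). RefSeq gives AT1G43890 the symbol *RAB18* and annotates it as a Rab GTPase homolog. For the summed vicilin-type genes they were the oleosin family gene AT3G01570 (r = 0.995), AT1G54860, AT3G11930, *NET3A* and AT4G27530 (r = 0.99 each). These correlations describe the libraries, which fall into 4 groups and share their scaling, and carry no test.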

How the data were processed

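Counts per locus of 16 3'RNA-seq libraries were used as the authors deposited them, unnormalized. The submitters' processing notes name STAR 2.7.8a, TAIR10 and DESeq2. The counting program, the use of strand and of molecular identifiers are not given in the sources used here. Total counts of 1416354 to 3635844 per library limit the precision. Each library was assigned to its group by its label.

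From the counts, all genes were fitted with edgeR 4.0.16 in R 4.3.3 (TMM, filterByExpr with a minimum count of 10, quasi-likelihood F test, 4 group means over 16 libraries), and p-values were adjusted by Benjamini-Hochberg over 12697 genes. Calls required an adjusted p under 0.05 and more than a 1.5-fold change, the interaction the adjusted p alone. Standard errors are the log2FC divided by the square root of F. The p-values measure the spread between these libraries. The fit was tested on simulated data.

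The members and lists were chosen with earlier results of these data known. All 8 members are named, and listed genes where called in any comparison, with *DOG1* as label check and the 5 genes of most similar pattern per globulin type. *ABI3*, *FUS3*, *LEC1*, *LEC2* and *L1L* were named additionally, after their values were seen. Coordinates and sequence comparisons are from RefSeq TAIR10.1, to which 37051 loci matched. Alternatives were DESeq2 1.42.0, other scaling and filters, only the groups compared, the replicate number as a block, adjusted p alone and each library left out. Protein sequences were not analysed here, and the regions upstream of the genes are not reported here.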

Additional observations from a re-analysis of the deposited data

Results flagged for a closer look

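Single libraries stood outside the spread of their group by Dixon's ratio (the gap to the nearest library over the group's range) in 5 of 44 groups of 4 libraries examined, and chance gives such a library in about 1 of 20 groups. *CRB* in *dog1-3* mock had a ratio of 0.840, with replicate 4 high at 4560 CPM. *CRC* in WT NaCl had a ratio of 0.829, with replicate 1 high at 17205 CPM, and AT2G18540 in WT NaCl one of 0.914, with replicate 3 high at 515 CPM. AT2G28490 in *dog1-3* mock had a ratio of 0.843, with replicate 4 low at 2926 CPM in a group with a narrow spread. The *CRB* proportion of cruciferin counts in WT mock had a ratio of 0.966, with replicate 4 low at 12.3%.

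The effect of salt differed between WT and *dog1-3* for AT2G18540 (interaction -0.72 on the log2 scale, adjusted p = 0.136) and AT4G36700 (-0.64, adjusted p = 0.403) at an unadjusted p under 0.05, and neither passed the adjusted p of edgeR's quasi-likelihood test.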

How the results depend on the processing

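Of 992 values of single members under the alternatives, 953 kept their direction and their call, 11 lost and 11 gained a call, and 17 changed sign. The 992 include the adjusted p alone, which keeps every log2FC of the main fit. They also include the leaving out of libraries from groups not compared, which enter a comparison only through the shared fit. The adjusted p crossed 0.05 in 32 of the 992, which need not change a call. With library size alone the members called higher were 1 with salt in WT and 0 in *dog1-3*, *CRB* with salt in WT was -0.013 and AT4G36700 with salt in *dog1-3* was -0.17. AT4G36700 in *dog1-3* was also -0.017 with upper-quartile factors, -0.0024 without the filter and -0.0037 with only the groups compared. With the adjusted p alone, 5 members were higher with salt in WT and 3 in *dog1-3*. All-gene calls then numbered 4498 and 3662 with salt in WT and *dog1-3* (2099 and 1865 with the fold-change limit) and 4492 and 3635 between genotypes in mock and NaCl (2334 and 1993). Without the filter the interaction called 2 members lower and 21 genes. Without the member of highest count the cruciferin share was 1.68, 1.85, 2.13 and 2.49% and the vicilin-type share 0.173, 0.217, 0.370 and 0.383% in WT mock, WT NaCl, *dog1-3* mock and *dog1-3* NaCl. Leaving out single libraries gave 1 to 4 members higher with salt in WT, 6 to 7 in *dog1-3* mock against WT, and 0 to 1 members and 0 to 3 genes for the interaction. Log2FC then ranged from -0.011 to 0.24 for *CRA1* and -0.089 to 0.25 for *CRB* with salt in WT, -0.085 to 0.14 for AT4G36700 with salt in *dog1-3*, -0.22 to 0.058 for *CRB* between genotypes in NaCl and -0.050 to 0.29 for the *CRB* interaction.

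Deviations of same-numbered libraries correlated at -0.060 to 0.089. The median was 0.011 for the same replicate number and -0.0047 for different numbers, and 9 of 16 libraries correlated best with their own number. Whether the replicate numbers pair the libraries was not tested. With the number as a block, members called higher remained 3 and 1 with salt in WT and *dog1-3* and 7 and 6 between genotypes in mock and NaCl, and none passed the interaction. All-gene calls were 2106, 1870, 2320, 1997 and 0. *CRD*, with 45 to 192 counts per library, was the member most limited by depth.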
